A study of Mus musculus with 3 samples.

Results

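Genes named Zfp with a number encode proteins that mostly bind DNA through zinc fingers, and they were followed here in RNA of the mouse dentate gyrus. The members were every row of the deposited expression table named Zfp followed by digits only on chromosomes 1 to 19, 327 of 24458 rows, with 325 different symbols. A member with 5 or more other Zfp rows within 10 table rows on either side was called clustered, which gave 95 clustered and 232 isolated rows. A further 9 rows with such names lay elsewhere and were left out. The choice used names and positions only, not expression values.

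The study asked what activating neurons does to open chromatin and to transcripts in the dentate gyrus, a part of the hippocampus rich in granule neurons. The libraries used form 1 group, labelled E24, of 3 C57BL/6 mice aged 8 weeks, with total RNA of the dissected tissue sequenced from each animal alone. The labels do not say what E24 stands for and name no genotype or agent. The deposited table as a whole is named WT and ECT, and no source used here spells these out. With 1 group there was no comparison between conditions, and the comparisons below are between places in the genome within the same libraries.

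In mice, a large part of these genes belongs to the KRAB zinc finger family, whose proteins bind particular DNA sequences, often within transposable elements. They recruit the corepressor Trim28 and the histone methyltransferase Setdb1, which silence the bound stretch. The family grew by tandem duplication, so that many members stand side by side in clusters, while others stand alone.

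Values are RPKM, read counts scaled by gene length and library size, and summed to 384523, 369261 and 350942 in replicates 1, 2 and 3. Read depth is unknown. In this table values are displaced by several rows between libraries, so a value belongs to a row name and not with certainty to that gene. The defining granule neuron gene Prox1 shows it: its row held 1.58, 39.3 and 0 RPKM in replicates 1, 2 and 3, and the highest values within 5 rows of it were 39.5, 39.3 and 40.5. Of the granule neuron marker rows 1 of 8 lay above 1 RPKM (limma, adjusted p under 0.05), against 18.3% of all 24458 rows. The counts were 0 of 4 for astrocytes, 1 of 4 for oligodendrocytes, 3 of 4 for microglia and 1 of 3 for endothelium. Whether any list differs from that share was not tested. The summed granule neuron rows ranged from 74.1 to 505.6 RPKM. In bulk tissue, fewer cells of a type and less RNA per cell cannot be told apart. For these reasons levels are given mainly as means over a window, the row and the 10 rows on either side of it, on the scale log2(RPKM + 1).

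The promoters of 4 members are shown because they represent the contrasts described below. Zfp956 and Zfp867 are the highest rows with similar values in all 3 libraries of the clustered and the isolated class, and Zfp30 and Zfp93 come from the chromosome 7 clusters of highest and lowest level. Each runs 250 bases before to 50 after the RefSeq gene start (GRCm38.p6), 5′ to 3′ on the gene's strand, with CpG dinucleotides in capitals.
Zfp956, chr6:47953140-47953439, plus strand: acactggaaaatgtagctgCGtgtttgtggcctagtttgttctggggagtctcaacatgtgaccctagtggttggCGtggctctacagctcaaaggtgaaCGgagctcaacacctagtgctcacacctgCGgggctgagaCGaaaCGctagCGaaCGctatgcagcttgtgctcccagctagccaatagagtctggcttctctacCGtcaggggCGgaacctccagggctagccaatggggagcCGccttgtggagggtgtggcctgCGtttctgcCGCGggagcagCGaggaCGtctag
Zfp93, chr7:24270168-24270467, plus strand: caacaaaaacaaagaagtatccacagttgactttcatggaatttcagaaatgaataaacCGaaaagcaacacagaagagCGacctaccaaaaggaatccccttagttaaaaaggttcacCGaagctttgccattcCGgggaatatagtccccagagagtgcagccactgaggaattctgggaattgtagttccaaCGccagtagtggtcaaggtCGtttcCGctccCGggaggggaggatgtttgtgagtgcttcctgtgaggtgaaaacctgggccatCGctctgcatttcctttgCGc
Zfp30, chr7:29783718-29784017, plus strand: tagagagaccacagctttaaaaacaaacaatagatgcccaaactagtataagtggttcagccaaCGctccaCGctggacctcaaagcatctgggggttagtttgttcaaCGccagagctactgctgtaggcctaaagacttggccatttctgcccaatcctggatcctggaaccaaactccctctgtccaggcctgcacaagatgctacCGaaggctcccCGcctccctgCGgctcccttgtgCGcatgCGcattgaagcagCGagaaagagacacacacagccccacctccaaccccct
Zfp867, chr11:59472425-59472724, minus strand: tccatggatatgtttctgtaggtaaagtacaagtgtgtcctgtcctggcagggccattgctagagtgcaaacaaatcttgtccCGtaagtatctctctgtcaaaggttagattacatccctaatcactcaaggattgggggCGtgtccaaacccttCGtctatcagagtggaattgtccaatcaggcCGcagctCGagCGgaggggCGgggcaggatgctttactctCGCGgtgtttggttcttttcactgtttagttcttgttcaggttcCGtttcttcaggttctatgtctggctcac

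The promoter of Zfp956 holds 16 CpG, and those of Zfp93, Zfp30 and Zfp867 hold 10, 9 and 10. Over the 268 of 325 Zfp symbols with an entry in the RefSeq table, the median was 10.5 CpG in 88 clustered and 17 in 180 isolated promoters, against 7 in all 27025 promoters. At least 10 CpG were present in 62.5% of clustered, 72.8% of isolated and 43.9% of all promoters. The GC box GGGCGG, on either strand, was found in 45.5%, 45.0% and 35.9% of these, the CCAAT box in 48.9%, 43.9% and 37.9%, and the TATA box TATAAA in 4.55%, 6.67% and 14.2%. Zfp promoters of both classes thus held a TATA box less often, and CpG more often, than the table as a whole. These are matches of letters in a window and were not tested.

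Zfp rows were seldom silent and seldom high. At 1 RPKM or more stood 67.6%, 66.7% and 67.3% of the 327 rows in replicates 1, 2 and 3, against 51.2%, 50.3% and 50.5% of all 23120 rows on these chromosomes. The difference was 16.5 percentage points ± 0.246 (SD, n = 3 animals). Rows listed at 0 made up 12.3% ± 1.84 of Zfp rows and 28.9% ± 1.28 of all rows. At the upper end the order turned: 18.6% ± 1.27 of Zfp rows and 25.6% ± 0.0908 of all rows reached 10 RPKM. Among rows at 1 RPKM or more the median was 4.90 RPKM ± 0.164 for Zfp rows and 10.2 ± 0.225 for all. The 3 differences in shares each had the same sign in 3 of 3 animals and were larger than the spread between them. The exact two-sided sign-flip permutation test gave p = 0.25 for the share at 1 RPKM, which is the smallest that 3 animals allow.

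The 2 classes differed little in how many rows were on, and clearly in how many reached 10 RPKM. Of the 95 clustered rows 70.5%, 68.4% and 70.5% stood at 1 RPKM or more, and of the 232 isolated rows 66.4%, 65.9% and 65.9%. At 10 RPKM or more stood 8.42%, 8.42% and 10.5% of clustered rows against 24.1%, 20.7% and 22.4% of isolated rows, so the libraries did not overlap between the classes. That difference was -13.3 percentage points ± 2.11 (SD, n = 3; exact sign-flip permutation p = 0.25). At 100 RPKM or more the shares were 2.11% ± 1.05 of clustered and 1.87% ± 0.249 of isolated rows, which is within the spread between libraries. The median over all rows of a class was 2.19 RPKM ± 0.154 for clustered and 2.72 ± 0.163 for isolated rows. At 1 RPKM or more in all 3 libraries were 50 clustered and 109 isolated rows, or 52.6% and 47.0%, against 33.2% of all rows on these chromosomes. At that level in no library were 14 and 39, or 14.7% and 16.8%, against 31.8%. Listed at 0 throughout were 3 and 14, or 3.16% and 6.03%, against 17.4%.

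**Figure D1:**
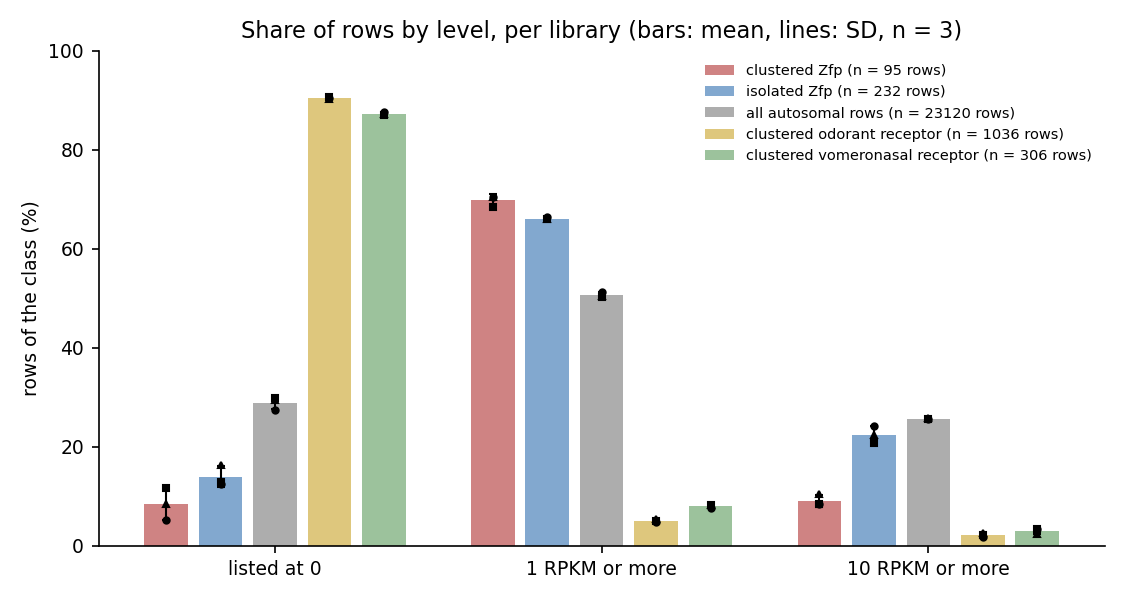
Share of rows, in percent, that were listed at 0, at 1 RPKM or more and at 10 RPKM or more, for clustered and isolated Zfp rows, all rows on chromosomes 1 to 19, and clustered odorant and vomeronasal receptor rows. Bars are means, lines the SD and points the 3 libraries; about 70% of clustered Zfp rows reach 1 RPKM but only 9.12% reach 10 RPKM.

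Clusters of smell and pheromone receptors, which are also tandem arrays, were far lower than Zfp clusters. By the same rule 1036 odorant receptor and 306 vomeronasal receptor rows were clustered. Of these 4.99% ± 0.295 and 7.95% ± 0.377 reached 1 RPKM, against 69.8% ± 1.22 of clustered Zfp rows (SD, n = 3). The window mean around clustered Zfp rows was higher by 1.37 ± 0.02 than around odorant and by 1.21 ± 0.04 than around vomeronasal receptor rows, in 3 of 3 animals each (exact sign-flip permutation p = 0.25 for both).

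The surroundings of clustered rows were lower than those of isolated rows. The window means were 1.73, 1.71 and 1.77 around clustered and 2.04, 2.03 and 2.04 around isolated rows in replicates 1, 2 and 3. The difference was -0.30 ± 0.02 (SD, n = 3), in the same direction in 3 of 3 animals (exact sign-flip permutation p = 0.25). All rows of these chromosomes averaged 1.93, 1.91 and 1.91, between the 2 classes. Taking the rows themselves, without their neighbours, gave -0.28 ± 0.14. The libraries no longer shared a sign with a pseudocount of 0.1, at -0.18 ± 0.23, or without chromosomes 13 and 17, at -0.15 ± 0.17 (exact sign-flip permutation p = 0.5 for both). The window difference was -0.17 without chromosome 17 and -0.07 without chromosomes 13 and 17. It was -0.19 with a pseudocount of 0.1, -0.45 over rows with a mean of 0.1 RPKM or more, and -0.18 with neighbours counted in the order of mm9 loci.

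The lower level was not limited to the Zfp rows of the clusters. In the windows of clustered rows, the rows not named Zfp averaged 1.67 ± 0.02, against 2.03 ± 0.02 in those of isolated rows. Odorant and vomeronasal receptor rows were kept in these means and in those outside the clusters below. With receptor rows left out of the windows, the window difference between the classes was -0.20 and not -0.30. Rows 1 to 10, 11 to 20, 21 to 30 and 31 to 40 positions outside the clusters averaged 1.74, 1.67, 1.80 and 1.67, all below the mean of all rows. Within the clusters the 95 Zfp rows averaged 1.82 ± 0.10 and the 81 other rows 1.66 ± 0.14. Without the 13 receptor rows among the latter, the other rows averaged 1.84 ± 0.14, and the difference from the Zfp rows was -0.02 ± 0.23 and changed sign between libraries.

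The level did not fall steadily with the number of Zfp neighbours. Around the 115 rows with no Zfp neighbour the window mean was 2.04 ± 0.01, with 1 neighbour 2.06 ± 0.01, with 2 neighbours 2.14 ± 0.04 and with 3 or 4 neighbours 1.96 ± 0.03 (SD, n = 3). With 5 to 7 neighbours it was 1.74 ± 0.02 and with 8 to 12 it was 1.73 ± 0.04, values within the spread of each other. Just inside the rule, 32 rows with 5 neighbours had 1.76 ± 0.04, and just outside, 18 rows with 4 neighbours had 2.23 ± 0.03. These 18 are among the 42 rows with 3 or 4 neighbours, which averaged 1.96. The rows with 3 neighbours thus lay below those with 4, and no step at the rule is read from this.

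**Figure D2:**
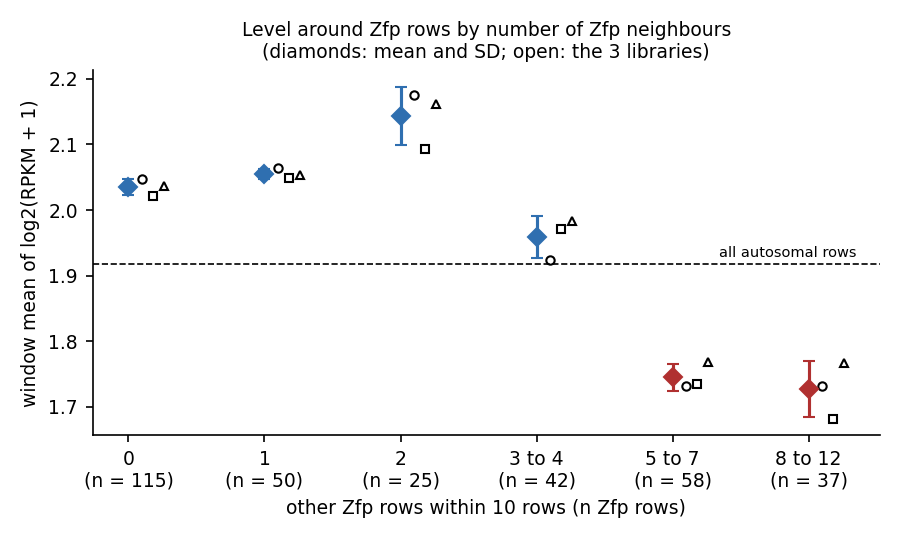
Mean of log2(RPKM + 1) in the 21-row window around Zfp rows, by the number of other Zfp rows within 10 rows. Diamonds with lines are mean and SD, open symbols the 3 libraries, and the dashed line is the mean of all rows on chromosomes 1 to 19; the 2 groups with 5 or more neighbours lie below it.

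The 95 clustered rows fell into 11 clusters, each taken as a block from its first to its last clustered row and tested against the mean of all rows on chromosomes 1 to 19. Of the 11 blocks 4 were lower and 1 was higher (limma, adjusted p under 0.05), which is 36.4% and 9.09%. Of all 1158 blocks of these chromosomes 36.7% were lower and 44.6% higher, so the share of low clusters was that of the background. The test asks whether an offset repeats between animals, not whether a block is unusual. The median offset was -0.31 over the 11 clusters and 0.10 over all blocks.

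A pair of clusters lay lowest, at nearly the same level. On chromosome 17 from Zfp799 to Zfp81, at 32932620 to 33495823 in mm9, a block of 19 rows held 7 Zfp and 3 receptor rows. Its mean was 1.20, 1.33 and 1.41 in replicates 1, 2 and 3, an offset of -0.60 with an SE of 0.06 (limma, adjusted p = 0.00142). The cluster from Zfp114 to Zfp93 on chromosome 7, at 24897338 to 25084568, had 1.27, 1.36 and 1.36 and an offset of -0.59 with an SE of 0.04 (limma, adjusted p = 0.000623). Which of them was lower turned with the setting: without receptor rows the offsets were -0.59 and -0.70. With 3 neighbours in the rule they were -0.32 and -0.43. Both clusters were below average in 3 of 3 libraries. Their highest Zfp values in any library were 6.91 and 5.21 RPKM.

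The largest clusters were also low when taken as whole blocks. On chromosome 13 from Zfp712 to Zfp85, at 67139529 to 67890017, 18 Zfp rows among 35 gave 1.54, 1.47 and 1.52. The offset was -0.41 with an SE of 0.03 (limma, adjusted p = 0.000925). A pseudocount of 0.1 turned it to 0.10, which did not pass (limma, adjusted p = 0.208), while rows with a mean of at least 0.1 RPKM gave -1.02. On chromosome 17 from Zfp54 to Zfp213, at 21145904 to 23736454, 18 Zfp rows among 33 gave 1.48, 1.48 and 1.60. Its offset was -0.40 with an SE of 0.04 (limma, adjusted p = 0.00215). This block also holds 8 vomeronasal receptor rows, without which in all means the offset was -0.15 (limma, adjusted p = 0.0199). Its Zfp rows alone averaged 1.93 ± 0.23 and its other rows 1.02 ± 0.25 (SD, n = 3). The call was lost under a pseudocount of 0.1 (offset -0.16; limma, adjusted p = 0.131). The offset was -0.81 over rows with a mean of at least 0.1 RPKM and -0.20 with neighbours counted in locus order.

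The cluster from Zfp30 to Zfp14 on chromosome 7, at 30553570 to 30954746, was the high one. Its 21 rows, 13 of them Zfp, averaged 2.39, 2.75 and 2.59, an offset of 0.66 with an SE of 0.09 (limma, adjusted p = 0.00357). Of its Zfp rows 84.6% ± 7.69 were at 1 RPKM or more, the highest share of the 11 clusters. The offset was 0.18 and did not pass when only rows with a mean of at least 0.1 RPKM were used (limma, adjusted p = 0.197). It was 0.39 without 3 rows at each edge and 1.60 with a pseudocount of 0.1, both past the test. Chromosome 7 thus held both a cluster well above and one well below the mean of all rows.

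The other 6 clusters did not pass, and 5 of them passed once a particular library was left out. Their values also moved widely with the setting. That from Zfp964 to Zfp866 on chromosome 8 had an offset of 0.68 with an SE of 0.23 (limma, adjusted p = 0.0529), with libraries at 2.94, 2.87 and 1.97. It passed without replicate 3, at 0.99, with 3 neighbours, at 0.41, and with a pseudocount of 0.1, at 1.36. On chromosome 10 the offset from Zfp433 to Zfp938 was -0.33 with an SE of 0.14, and it passed without replicate 3, at -0.51, and without 3 rows at each edge, at -1.36. On chromosome 6 the offset from Zfp786 to Zfp956 was 0.16 with an SE of 0.06, and on chromosome 7 that from Zfp551 to Zfp606 was 0.13 with an SE of 0.06. Both passed without replicate 1, at 0.23 and 0.19, and with a pseudocount of 0.1, at 0.60 and 0.61. Over rows with a mean of at least 0.1 RPKM they turned to -0.45 and -0.49 and passed as low. The Zfp551 to Zfp606 offset was 1.64 without 3 rows at each edge and 1.06 with neighbours counted in locus order, both past the test. Blocks follow table order, and in mm9 this one runs from 6316014 to 13559171. It overlaps that from Zfp28 to Zfp444, at 6124114 to 7162709. The offset from Zfp28 to Zfp444 was 0.02 with an SE of 0.04, and it passed in opposite directions with a pseudocount of 0.1, at 0.68, and with 3 neighbours, at -0.68. From Zfp747 to Zfp688, a block of 6 rows, it was -0.31 with an SE of 0.20, and it passed without replicate 2, at -0.58, and with the opposite sign with 3 neighbours, at 0.62.

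**Figure D3:**
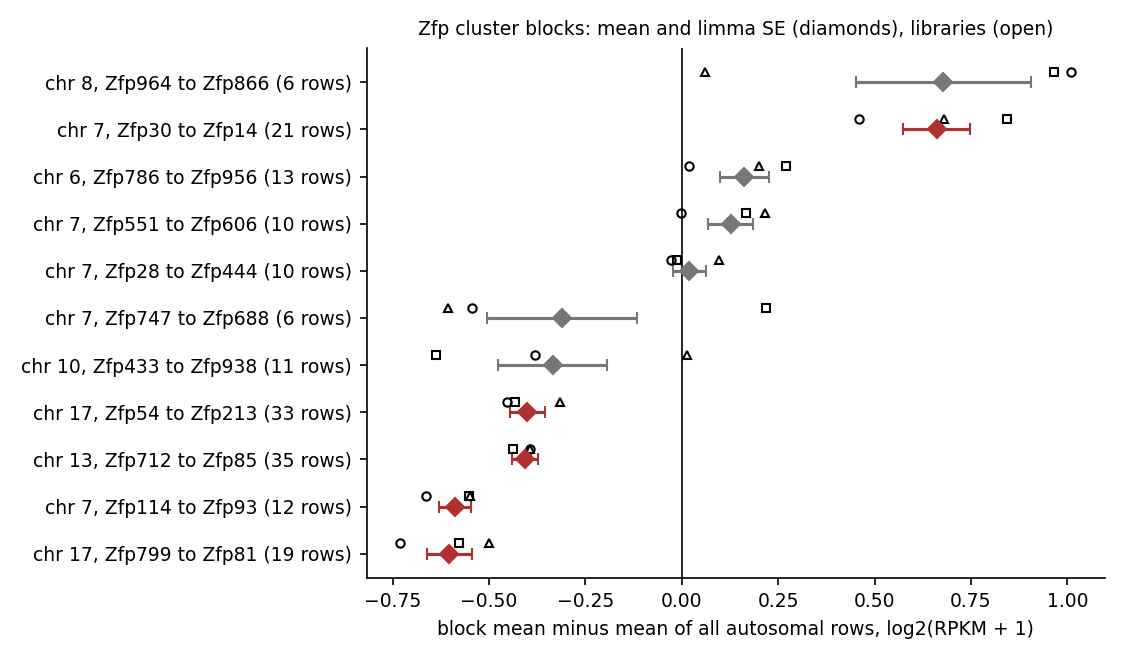
Mean log2(RPKM + 1) of each of the 11 Zfp cluster blocks minus the mean of all rows on chromosomes 1 to 19. Diamonds with lines are the mean and the limma SE, red where the adjusted p is under 0.05, and open symbols are the 3 libraries; 4 clusters lie low and that from Zfp30 to Zfp14 high.

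Single high values moved between row names inside the clusters. In the Zfp54 to Zfp213 cluster and the 5 rows on either side, the highest value was 230.0 RPKM in replicate 1, 221.7 in replicate 2 and 217.0 in replicate 3. It stood in the row of Zfp52, in that of the phosphatase scaffold subunit Ppp2r1a, and in that of Zfp160. In replicates 2 and 3 the Zfp52 row held 3.67 and 3.89 RPKM, and in replicates 1 and 2 the Zfp160 row held 2.81 and 3.39. In the chromosome 8 cluster the Zfp963 row held 245.6, 214.7 and 2.20 RPKM in replicates 1, 2 and 3. The highest value there and in the 5 rows on either side in replicate 3 was 214.4. It stood in the row of the proton pump subunit Atp6v1b2, which held 1.20 and 1.02 RPKM in replicates 1 and 2. Such a value in a Zfp row is therefore not read as the level of that gene.

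The windows around Zfp rows were also compared between chromosomes. Against the mean of all Zfp windows, 9 of the 18 chromosomes with at least 3 Zfp rows lay above and 4 below at an adjusted p under 0.05 (limma), or 50% and 22.2% of them. Against all rows of the same chromosome, 10 were higher and 5 lower, or 55.6% and 27.8%. Both sets consist of the chromosomes themselves, so these shares are their own background.

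By windows, chromosome 1, with 4 isolated rows, was the highest of the 18 at 2.41, 2.40 and 2.33. It exceeded all Zfp windows by 0.43 with an SE of 0.02 (limma, adjusted p = 4.1e-05) and its own rows by 0.47. With windows of 20 rows on either side these were 0.24 and 0.23. Its 4 Zfp rows themselves averaged 1.81, below the 1.91 of all rows of that chromosome and the 2.02 of all Zfp rows. On average 41.7% of them stood at 1 RPKM or more, against 67.2% of all Zfp rows. By windows, chromosome 13, with 31 rows, was the lowest at 1.62, 1.60 and 1.61. It was lower than all Zfp windows by -0.34 with an SE of 0.02 (limma, adjusted p = 3.33e-05) and than its own rows by -0.16. With windows of 20 rows on either side chromosome 17 was lower than chromosome 13, at -0.30 against -0.28 from all Zfp windows. With a pseudocount of 0.1 they were nearly equal, at -0.251 for chromosome 17 and -0.248 for chromosome 13. The windows of chromosome 17, with 38 rows, deviated by -0.24 from all Zfp windows and by -0.13 from all rows of that chromosome. The chromosome 17 Zfp rows themselves averaged 1.92, above the 1.84 of all rows there. Against their own rows, chromosomes 13 and 17 turned to 0.16 and 0.08 with a pseudocount of 0.1.

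Chromosome 7 carried 85 of the 327 rows, 34 clustered and 51 isolated. Its Zfp windows averaged 1.92, 1.90 and 1.96, which did not pass against all Zfp windows (-0.02, SE 0.02; limma, adjusted p = 0.25). With windows of 20 rows on either side the difference was -0.0701 and passed (limma, adjusted p = 0.00183). They exceeded the rows of chromosome 7 by 0.33 with an SE of 0.02 (limma, adjusted p = 0.000349), and by 0.76 with a pseudocount of 0.1. Over rows with a mean of 0.1 RPKM or more this turned to -0.04 and did not pass (limma, adjusted p = 0.188). The Zfp windows of chromosome 11, with 17 isolated rows, lay below all rows of that chromosome by -0.19. Over the same filtered rows this turned to 0.05. The chromosome 11 Zfp rows themselves averaged 2.65, above the 2.18 of all rows there.

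Within chromosomes, clustered and isolated rows did not differ in 1 direction. On chromosome 17 the clustered windows were lower by -0.85 ± 0.05 and on chromosome 13 by -0.26 ± 0.07 (SD, n = 3). On chromosome 6 they were higher by 0.16 ± 0.07, and on chromosome 8 the difference of 0.03 ± 0.08 changed sign between libraries. On chromosome 7 the difference of -0.09 ± 0.03 turned to 0.09 ± 0.04 with odorant and vomeronasal receptor rows left out of the windows. Leaving them out gave -0.60 ± 0.04 on chromosome 17 and -0.32 ± 0.07 on chromosome 13. The exact sign-flip permutation p was 0.25 for chromosomes 6, 7, 13 and 17 and 1 for chromosome 8, over 5 chromosomes with 3 or more rows of each class, before any adjustment.

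**Figure D4:**
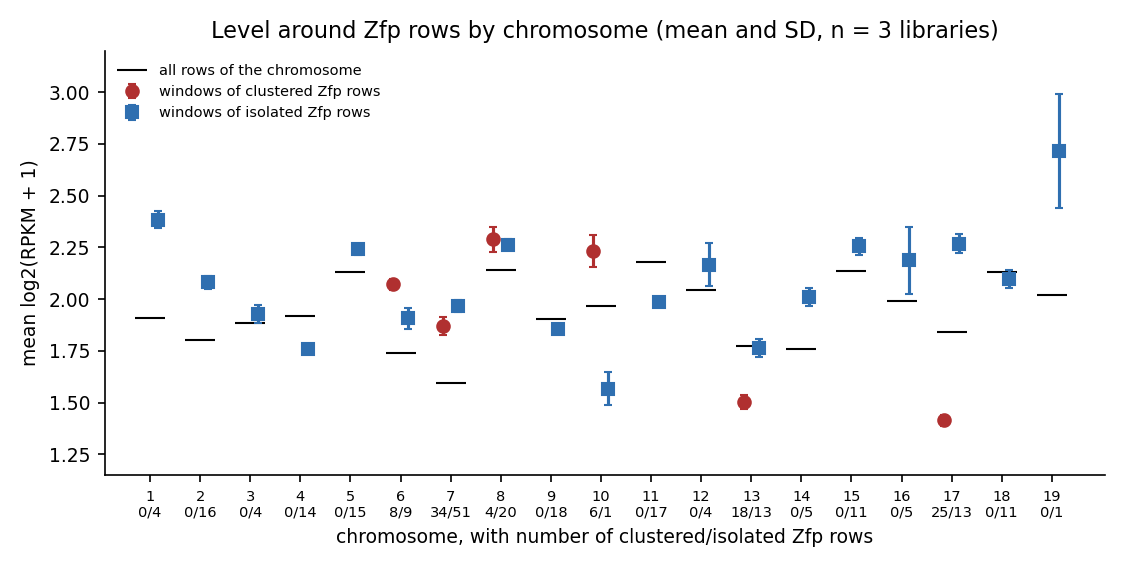
Mean of log2(RPKM + 1) in the windows around clustered (red) and isolated (blue) Zfp rows of each chromosome, with the mean of all its rows (black). Lines are the SD of 3 libraries and the numbers under each chromosome count clustered and isolated rows; the clustered rows of chromosomes 13 and 17 lie lowest.

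By row name, 11 of the 95 clustered and 54 of the 232 isolated rows lay above 1 RPKM (limma, adjusted p under 0.05), or 11.6% and 23.3%. Of all 24458 rows, 18.3% did. Without replicate 2 the counts were 2 and 29, and without replicate 3 they were 1 and 20. The share of all rows without a library is not given here, so these drops are not read as particular to Zfp rows.

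Rows whose highest value was at most 25% above the lowest, called steady, numbered 18 clustered and 33 isolated, which is 18.9% and 14.2%, against 9.17% of all rows. The highest of these clustered rows was Zfp956, with 6.92, 7.91 and 8.25 RPKM. The Zfp781 row at 81364655 on chromosome 10 held 7.70, 7.43 and 7.30 RPKM. Another Zfp781 row of that cluster, at 81205565, was not steady and held 1.74, 0.247 and 0.173. Zfp947 on chromosome 17 held 6.53, 6.94 and 6.65 RPKM. The next 5, Zfp108, Zfp954, Zfp383, Zfp87 and Zfp110, had means from 4.46 to 4.87 RPKM. The steady clustered rows were thus all under 10 RPKM on average.

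Steady isolated rows reached far higher. The Zfp867 row on chromosome 11 held 253.9, 214.3 and 205.6 RPKM, and the Zfp219 row on chromosome 14 held 110.0, 104.8 and 103.9. The Zfp251, Zfp39 and Zfp592 rows had means of 56.4, 44.7 and 41.7 RPKM, and Zfp442, Zfp664 and Zfp672 of 24.1, 21.2 and 13.4. All 8 passed against 1 RPKM, with limma adjusted p between 0.00144 and 0.00194. The Zfp867 values were also the highest within 5 rows of the Zfp672 row, and whether they belong to Zfp867 was not tested.

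A lowest value of 0 counts as an infinite ratio between libraries. Among rows averaging at least 5 RPKM, those of the largest ratio therefore held a 0 by definition, and the 5 of highest mean were taken. Zfp516 held 0, 2.09 and 71.1 RPKM, with 16.4, 77.6 and 71.1 as the highest values within 5 rows. Zfp2 held 63.8, 0 and 0 RPKM, and Zfp473 held 33.2, 0 and 0. Zfp212, the clustered one among them, held 12, 0 and 19.4 RPKM, with 12.5, 19.7 and 19.4 as the highest values within 5 rows. Of the rows that reached 5 RPKM in some library, 4 of 33 clustered and 18 of 135 isolated rows were listed at 0 in another, 12.1% and 13.3%, against 21.5% of all rows.

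**Figure D5:**
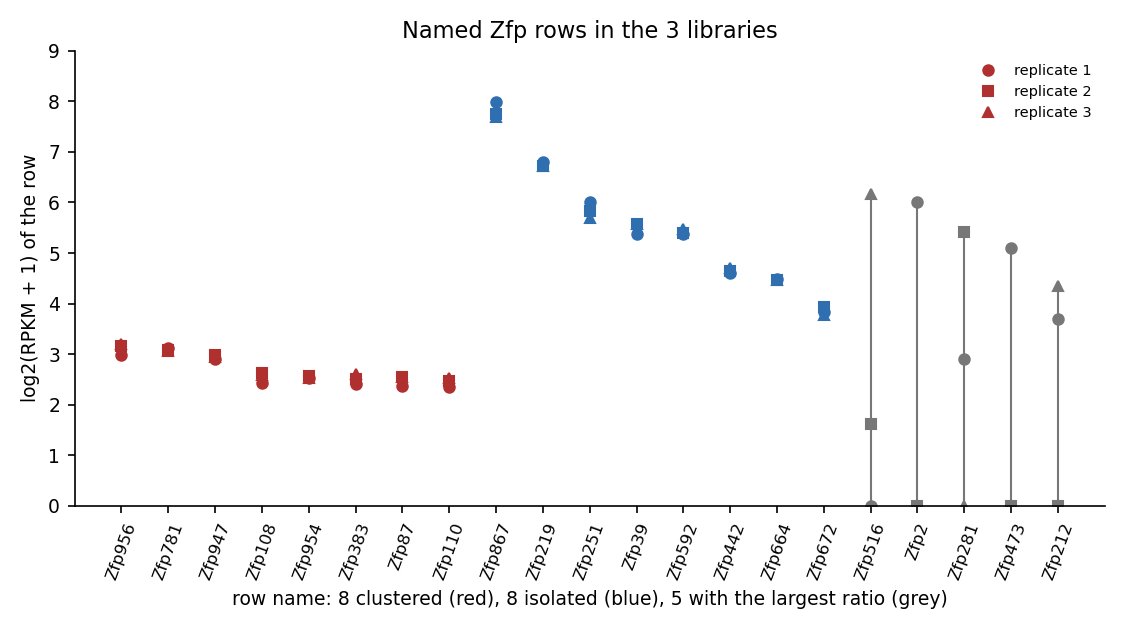
Values of named Zfp rows as log2(RPKM + 1) in replicate 1 (circle), 2 (square) and 3 (triangle): the 8 highest steady clustered rows (red), the 8 highest steady isolated rows (blue) and the 5 rows of the largest ratio between libraries (grey). Steady clustered rows lie near 2 to 3 and steady isolated rows between about 4 and 8.

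Isolated members with known roles varied widely. Zfp106, an RNA-binding protein needed by motor neurons, had a row at 22.7, 17.9 and 27.7 RPKM. Zfp335, which neural progenitors need, held 7.58, 8.65 and 8.67 RPKM, and Zfp191, which oligodendrocytes need for myelination, held 6.26, 6.70 and 6.27. These 3 and Zfp536, a repressor found in brain with 8.89, 5.41 and 5.18 RPKM, passed against 1 RPKM (limma, adjusted p from 0.00266 to 0.0223). Zfp423, a factor of cerebellar and fat development, held 2.11, 3.28 and 2.75 RPKM, and Zfp148, which binds GC-rich promoters, 1.80, 1.66 and 3.36. Zfp462 held 1.18, 0.879 and 1.10 RPKM. None of these 3 passed.

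The remaining such rows were uneven or at 0. Zfp281, a factor of pluripotent cells, held 6.45, 41.6 and 0 RPKM, with 8.91, 41.6 and 42.0 as the highest values within 5 rows. Zfp521 held 0.0206, 9.86 and 0 RPKM, and Zfp57, which guards imprinted methylation, 4.57, 0 and 0. The highest values within 5 rows were 28.0, 9.86 and 27.6 for Zfp521 and 4.57, 0 and 24.8 for Zfp57. The row of Zfp42, the pluripotency gene known as Rex1, and that of the spindle protein gene Zfp207 were listed at 0 in all 3 libraries. Near the Zfp207 row stood values up to 46.7, 56.1 and 55.6 RPKM. Zfp36, which despite its name encodes an RNA decay factor, held 1.36, 2.24 and 1.34 RPKM, with 319.1, 282.8 and 268.3 within 5 rows.

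Levels were also set beside promoter CpG. Among isolated rows, 27.7% ± 3.92 of the 131 with at least 10 promoter CpG and 12.2% ± 5.40 of the 49 with fewer reached 10 RPKM (SD, n = 3). Among clustered rows the shares were 9.36% ± 4.05 of 57 and 10.1% ± 3.50 of 33. Whether the classes differ in this was not tested, and rows carry displaced values. Loci were of similar length, with a median of 14256 bp for clustered and 15740 bp for isolated rows.

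The corepressors that KRAB zinc finger proteins work through were measured by row as well. Of 20 listed rows 7 lay above 1 RPKM (limma, adjusted p under 0.05), against 18.3% of all rows. Trim28, the direct partner, held 49.5, 59.1 and 58.0 RPKM, and Setdb1 held 7.68, 9.55 and 9.55. The highest rows were those of the chromatin helicase Chd4, with 316.4, 16.1 and 37.5 RPKM, its relative Chd3, with 99.9, 112.0 and 108.9, and the deacetylase Hdac2, with 109.1, 61.8 and 62.7. Chd4 did not pass. The highest isolated Zfp value of replicate 2, 317.6 RPKM in the Zfp384 row, was also the highest within 5 rows of Chd4 in that library. Cbx3, a heterochromatin protein, was listed at 0 in all libraries, with 82.1, 82.2 and 84.7 RPKM within 5 rows. By blocks of about 20 rows, 9 of 19 lay in a high block and 4 in a low one, against 44.6% and 36.7% of all blocks.

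Other zinc finger families named differently were also counted at 1 RPKM or more. The shares were 67.6% of 34 Zbtb rows, 64.6% ± 9.55 of 16 Klf rows, 63.3% ± 15.3 of 10 Zscan rows and 60.6% ± 10.5 of 11 Zkscan rows (SD, n = 3). The 4 Zic rows had 83.3% ± 14.4. Zfp rows had 67.2% and all autosomal rows 50.7%. The Zscan and Zkscan shares lay within 1 SD of both, so they cannot be placed with either. Zbtb and Klf windows averaged 2.26 ± 0.04 and 2.25 ± 0.06, Zscan, Zkscan and Zic windows 1.85 ± 0.01, 1.78 ± 0.06 and 1.73 ± 0.05. Zfp windows averaged 1.95 and those of all autosomal rows 1.92.

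Row names agreed poorly between libraries in both classes, and windows well. Over the 95 clustered rows, Pearson's r on the log2 scale was 0.42 between replicates 1 and 2, 0.33 between 1 and 3, and 0.43 between 2 and 3. Over the 232 isolated rows the same pairs gave 0.41, 0.54 and 0.53. Rows share a library and are not independent, and the windows overlap. For the window means r was at least 0.95 in every pair of both classes.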

How the data were processed

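RNA of 3 libraries of the group E24 was analysed, 1 per animal, per the labels' protocols. The authors deposited RPKM values made with TopHat2 and Cufflinks on mm9, per the submitters' processing notes. Tool versions, annotation and filters: not given in the sources used here. A further 9 value columns match no listed sample and were not used. Coordinates are as the table gives them, and 29.4% of neighbouring pairs of rows break genomic order.

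Window means took the row and 10 rows on either side on the same chromosome. Class differences were computed per library and tested with the exact sign-flip permutation test. Blocks between clusters were runs of about 20 rows. Offsets of blocks and chromosomes were tested two-sided with an intercept-only limma model (version 3.58.1, R 4.3.3; Benjamini-Hochberg over all blocks or chromosomes), and rows against 1 RPKM on log2(RPKM + 1) with a variance trend, one-sided, over all rows. The scripts were tested on simulated data. RPKM carry no counts, so no counting interval is given.

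Named rows were all clusters, the 8 highest steady rows of each class, the 5 of largest ratio (mean at least 5 RPKM), the highest and lowest chromosomes and a list of known genes, of which Zfp238 had no row; other names were chosen after their values were seen. The members and lists were chosen with earlier results of these data known. Alternatives varied the pseudocount, scaling, filter, windows, blocks, cluster rule, level and libraries. Promoters are from RefSeq.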

Additional observations from a re-analysis of the deposited data

How the results depend on the processing

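For the main results 109 alternatives were computed: 70 stayed within 1 SD or 1.5 times the count, and 39 moved further. Counts in mm9 locus order, chromosomes left out and receptor rows left out were chosen after seeing the data. For locus order only the Zfp neighbours were counted anew, while windows and blocks kept the order of the table. The window difference of -0.30 kept its sign throughout: -0.25 with 3 and -0.25 with 8 neighbours, -0.18 in mm9 locus order, -0.19 with a pseudocount of 0.1, -0.45 over rows with a mean of 0.1 RPKM or more, -0.32 with 20 rows on either side, -0.20 without receptor rows, -0.39 without chromosome 7, -0.26 without 13, -0.17 without 17, -0.0651 without 13 and 17, and -0.31 to -0.29 leaving out 1 library. The own-row difference of -0.28 was -0.0873 with 3 neighbours, -0.12 in locus order, -0.45 with the filter, -0.18 with a pseudocount of 0.1, -0.15 without chromosomes 13 and 17, and -0.37 to -0.24 leaving out 1 library.

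Higher clusters numbered 2 of the 9 blocks left with 3 rows off each edge, 5 of 21 with 3 neighbours, 8 of 22 in locus order, 3 with other blocks of 50 rows, 5 with a pseudocount of 0.1, 2 with upper-quartile scaling, 0 with the filter (limma; 0 at an unadjusted p under 0.05) and 1 to 3 leaving out 1 library. Lower clusters numbered 7 in locus order, 2 with a pseudocount of 0.1, 7 with the filter and 4 to 5 leaving out 1 library. Chromosomes above their own rows numbered 2 with the filter and 7 to 12 leaving out 1 library, and those below 2 with a pseudocount of 0.1 and 4 leaving out 1 library. Chromosomes below all Zfp windows numbered 7 with a pseudocount of 0.1. Rows above 1 RPKM numbered 20 clustered with 3 neighbours, 4 with 8, 18 at a level of 0.5 RPKM, 21 with a pseudocount of 0.1, 0 clustered (4 at an unadjusted p under 0.05 by limma) and 15 isolated at 5 RPKM, and 1 to 14 clustered and 20 to 55 isolated leaving out 1 library.

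Directions turned for 5 clusters: Zfp28 to Zfp444 was -0.18 with edges off, -0.68 with 3 neighbours and in locus order, -0.19 without receptor rows, -0.60 with the filter, 0.68 with a pseudocount of 0.1, and -0.0202 to 0.0422 leaving out 1 library; Zfp551 to Zfp606 was -0.49 with the filter but 1.64 with edges off and 1.06 in locus order; Zfp712 to Zfp85 was 0.10 with a pseudocount of 0.1; Zfp747 to Zfp688 was 0.62 with 3 neighbours, 0.50 in locus order and 0.16 with a pseudocount of 0.1; Zfp786 to Zfp956 was -0.0299 with edges off and -0.45 with the filter. Zfp114 to Zfp93 ranged from -1.65 with 8 neighbours to -0.43 with 3. Against all Zfp windows chromosome 11 was -0.22 with a pseudocount of 0.1 and -0.0257 with windows of 5 rows, and chromosome 7 was 0.0373 with the filter and 0.0421 with windows of 5 rows. Against their own rows chromosomes 11 and 7 were 0.0504 and -0.0445 with the filter, and with a pseudocount of 0.1 chromosomes 13 and 17 were 0.16 and 0.0767. The cause of these moves was not tested, except that some settings test other rows or fewer libraries. No paired analysis was possible because there is 1 group. Shares of all rows above 1 RPKM under the alternatives are not given here. RPKM values do not tell what read depth limits.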
